A study of Mus musculus with 20 samples.

Results

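The lysosomal proteases examined here are 10 genes, followed across 5 sorted cell populations and 4 batches. They were chosen by name: the aspartic protease gene Ctsd, the cysteine cathepsin genes Ctsb, Ctsc, Ctsh, Ctsk, Ctsl, Ctss and Ctsz, the legumain gene Lgmn, and Cst3, which encodes the cathepsin inhibitor cystatin C. They are 10 of the 45705 genes measured, and all 10 were among the 27614 genes with enough expression to be tested, set at 1 RPKM or more in at least 4 libraries. RPKM scales the reads of a gene to its length and to the reads of its library, so that levels of different genes can be compared per length.

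The cells came from the periventricular tissue of Swiss Webster mouse pups at postnatal day 5, with litters pooled and both sexes included. The tissue was dissociated with Liberase and living cells were sorted by 4 surface antigens, with no agent given to the animals and no antigen of immune cells in the stated gates. Neural stem cells (NSC) were CD133+ CD15+ and lacked CD140a and NG2. The other 4 populations were CD133- and NG2+: BNAP/GRP1 was CD140a- CD15+, GRP2/MP3 was CD140a- CD15-, GRP3 was CD140a+ CD15- and PFMP was CD140a+ CD15+. BNAP is the bipotential neuronal-astrocytic progenitor, GRP a glial-restricted progenitor, MP a multipotential progenitor and PFMP a multipotential progenitor that responds to platelet-derived and fibroblast growth factors. BNAP and GRP1 share an antigen profile, as do GRP2 and MP3, and the study could not tell them apart by these antigens. Each such gate thus holds more than 1 kind of progenitor. Each population was sampled once in each of 4 labelled batches, which gave 20 libraries of amplified polyA RNA, and each library carries the name of its population and the number of its batch. The study treats its replicates as independent experiments and pooled the pups of each litter. Which litters entered which batch is not given in the sources used here, so the p-values below measure the spread between these samples.

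Cathepsins are made as inactive precursors, tagged with mannose 6-phosphate in the Golgi and delivered to the acidic lysosome, where they are cut into active proteases that break down protein. Legumain, which cuts after asparagine, matures several of them, and cystatin C is a secreted protein that blocks the cysteine cathepsins outside the cell. In the brain the lysosomal proteases are made by most cells but are especially abundant in microglia and macrophages, in which cathepsin S also takes part in antigen presentation.

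Ctss (ENSMUSG00000038642) lies on chromosome 3 at 95526786 to 95556403 of GRCm38 on the plus strand, and Ctsk (ENSMUSG00000028111), which encodes the collagen-degrading cathepsin of osteoclasts, lies just before it on the same strand at 95499256 to 95509362, with 17423 bases between the pair. The upstream windows of these neighbours are shown because the genes had unlike levels in these libraries. That of Ctsc is shown as the only window found for the genes examined here that matched GAGGAAGT, a motif described next. The windows are the 250 bases before the start given by RefSeq on GRCm38.p6, 5′ to 3′, and capitals mark a match to an interferon response motif, which reads GAAA, any 2 bases and GAAA again and is bound by interferon regulatory factors, or to GAGGAAGT, the letters bound by the myeloid factor PU.1, on either strand.

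Ctss, chr3:95526536-95526785, plus strand: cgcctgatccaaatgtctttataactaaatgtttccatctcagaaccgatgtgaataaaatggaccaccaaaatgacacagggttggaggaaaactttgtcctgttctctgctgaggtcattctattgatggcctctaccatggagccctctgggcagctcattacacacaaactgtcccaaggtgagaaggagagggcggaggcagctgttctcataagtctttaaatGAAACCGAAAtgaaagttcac
Ctsk, chr3:95498960-95499209, plus strand: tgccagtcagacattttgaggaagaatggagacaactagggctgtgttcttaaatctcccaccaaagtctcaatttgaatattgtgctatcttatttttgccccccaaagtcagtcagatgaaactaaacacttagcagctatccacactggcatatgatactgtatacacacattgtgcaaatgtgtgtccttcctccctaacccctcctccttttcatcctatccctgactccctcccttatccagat
Ctsc, chr7:88277835-88278084, plus strand: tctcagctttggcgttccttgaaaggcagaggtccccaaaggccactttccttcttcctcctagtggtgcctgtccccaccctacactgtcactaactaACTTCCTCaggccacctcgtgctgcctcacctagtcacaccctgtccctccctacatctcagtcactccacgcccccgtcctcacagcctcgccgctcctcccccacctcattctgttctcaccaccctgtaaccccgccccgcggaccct

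The match in the Ctss window began 21 bases before the start, and the interferon response motif was found in 2.98% of all 32851 such windows. The match in the Ctsc window, which reads on the minus strand, began 151 bases before the start, and GAGGAAGT was found in 2.44% of the windows. The Ctsk window held neither. Windows were found for 8 of the 10 genes, 9 windows in all, with 2 for Lgmn and none for Ctsb or Ctsh. CACGTG, the E-box core recognised by the lysosomal regulators TFEB and TFE3, was present in the windows of Ctsd, with matches at 245 and 98 bases before the start, of Ctsl at 236 bases and in 1 of the Lgmn windows at 49 bases, against 6.02% of all windows. The longer palindrome TCACGTGA, which contains CACGTG, was present in that of Ctsd and in 0.785% of all windows. By the GENCODE gene positions, the Ctsl window and the Lgmn window with the match lay within the gene, and the Ctsd window overlapped it. They are thus before the start given by RefSeq but not before the whole gene. These matches describe the letters only.

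The libraries of batch 3 stood apart from all others before any comparison was made. Across the 5 populations of batch 3 the coefficient of variation of the 10 genes was between 0.0429 and 0.0720, with a median of 0.34 over all expressed genes, while in batch 1 it was between 0.939 and 1.62 for the 10 genes. In batch 3 the summed level of 8 oligodendrocyte progenitor markers was 2.72 to 15.7 RPKM, although GRP3 and PFMP were sorted for CD140a, and that of 8 astroglia and NSC markers was 150 to 261 RPKM against 340 to 14932 RPKM in batches 1, 2 and 4. The 10 alveolar macrophage markers summed to 1373 to 1614 RPKM in batch 3 and to 1.16 to 139 RPKM elsewhere, and 9 lung epithelium markers to 921 to 1050 RPKM against 0.358 to 105 RPKM. The batch 3 library labelled NSC kept 1231 RPKM of 7 ependymal markers, against 4.37 to 6.71 RPKM in the other libraries of that batch. Whether the libraries of batch 3 hold the sorted cells that their labels name was not tested, and every mean over 4 batches contains them. The comparisons of populations are therefore given with and without that batch. Library BNAP/GRP1 4 also stood apart, with a median of 8.3 RPKM over all genes against at most 2.02 RPKM in any other library. Read totals were not in the table, so no counting interval can be given. RPKM sums per library ran from 955067 to 2407643, and 20116 to 39689 genes were above 0.

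The question put to each progenitor was how it differs from NSC, the population from which, according to the study, it descends. Ctsd (ENSMUSG00000007891, chromosome 7, 142375911 to 142388038, minus strand) encodes cathepsin D, the main aspartic protease of the lysosome. In NSC it was measured at 29.1, 47.2, 4646 and 76.9 RPKM in batches 1 to 4, in BNAP/GRP1 at 2291, 250.2, 5308 and 11.6 RPKM, and in GRP2/MP3 at 1239, 1081, 5179 and 74.0 RPKM. In GRP3 it was at 48.1, 29.2, 5165 and 10.5 RPKM and in PFMP at 14.9, 47.0, 4842 and 38.8 RPKM. The 5 libraries of batch 3 lay above the other 15, and in batches 1 and 2 both CD140a- NG2+ populations lay above the remaining 3. In batch 4 no population stood clear, and the lowest levels were those of GRP3 and BNAP/GRP1. 

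Cathepsin S, encoded by Ctss, spanned 2.47 to 9495 RPKM over the libraries. It was at 29.0, 8.48, 2980 and 30.4 RPKM in NSC, at 6393, 695, 3341 and 7.08 RPKM in BNAP/GRP1 and at 2100, 9495, 3208 and 83.1 RPKM in GRP2/MP3. GRP3 gave 18.9, 21.0, 3286 and 2.47 RPKM and PFMP 18.3, 33.0, 3115 and 13.2 RPKM. GRP2/MP3 was above NSC in each of the 4 batches, by 6.13, 9.97, 0.11 and 1.42 on the log2 scale, whereas BNAP/GRP1 was above it in batches 1 to 3 and below it in batch 4. In GRP2/MP3 2 it was, per length, the most abundant of the 10 genes.

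Ctsl (ENSMUSG00000021477, chromosome 13, 64359337 to 64370890, minus strand) encodes cathepsin L, an endopeptidase closely related to cathepsin S. Its levels were 240.0, 163, 1538 and 120 RPKM in NSC, 6792, 343, 1703 and 8.93 RPKM in BNAP/GRP1 and 2572, 5559, 1703 and 79.9 RPKM in GRP2/MP3. In GRP3 they were 124, 185, 1709 and 43.0 RPKM and in PFMP 133, 139, 1606 and 30 RPKM. Here batch 3 was not the highest, since BNAP/GRP1 1, GRP2/MP3 1 and GRP2/MP3 2 lay above all of it, and batch 4 was the lowest batch in every population.

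Ctsh (ENSMUSG00000032359, chromosome 9, 90054152 to 90076089, plus strand) encodes cathepsin H, an aminopeptidase. It had another order, with 170, 289, 297 and 69.6 RPKM in NSC, 53.4, 25.2, 335 and 28.8 RPKM in BNAP/GRP1 and 49.2, 66.2, 313 and 23.3 RPKM in GRP2/MP3. It was in single digits outside batch 3 in the CD140a+ populations, with 5.26, 4.16, 318 and 6.23 RPKM in GRP3 and 1.02, 0.349, 290.2 and 7.97 RPKM in PFMP. In batches 1, 2 and 4 every progenitor library was below the NSC library of its own batch, 12 of 12 pairs, by -7.75 to -1.24 on the log2 scale, whereas in batch 3 only PFMP was, by -0.03. All pairs of a batch share its NSC library, so the 12 pairs are not independent.

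Ctsk was at 0.389, 0.0958, 431 and 0.61 RPKM in NSC, at 0.271, 1.08, 472 and 8.64 RPKM in BNAP/GRP1 and at 1.80, 6.06, 485 and 0.605 RPKM in GRP2/MP3. GRP3 had 5.16, 5.07, 485 and 1.46 RPKM and PFMP 1.41, 0.255, 488 and 0.506 RPKM. Every library outside batch 3 was at or below 8.64 RPKM and every library of batch 3 was far above that, with no overlap.

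The exopeptidase genes Ctsc, Ctsz and the genes of cathepsin B and legumain followed Ctsd. Ctsb (ENSMUSG00000021939) lies on chromosome 14 at 63122462 to 63145923, Ctsc (ENSMUSG00000030560) on chromosome 7 at 88278085 to 88310888, Ctsz (ENSMUSG00000016256) on chromosome 2 at 174427493 to 174439039 and Lgmn (ENSMUSG00000021190) on chromosome 12 at 102394084 to 102439813. Outside batch 3, Ctsb ranged from 9.85 to 1597 RPKM in BNAP/GRP1 and from 111 to 836 RPKM in GRP2/MP3, against 31.3 to 51.2 RPKM in NSC, 19 to 30.4 RPKM in GRP3 and 18.9 to 86.7 RPKM in PFMP. Ctsc, the activator of leukocyte serine proteases, ranged there from 42.0 to 256 RPKM in GRP2/MP3 and from 6.63 to 39.4 RPKM in NSC, with 17.7 to 297 RPKM in BNAP/GRP1, 3.65 to 6.93 RPKM in GRP3 and 1.59 to 20 RPKM in PFMP. GRP3 and PFMP were the lowest populations for Ctsc in batches 1 and 2, and GRP3 was the lowest in batch 4. Ctsz ranged from 208 to 640.2 RPKM in GRP2/MP3 and from 36.0 to 94.3 RPKM in NSC, with 7.27 to 1029 RPKM in BNAP/GRP1, 14 to 19.8 RPKM in GRP3 and 5.82 to 50.9 RPKM in PFMP. Lgmn ranged from 137 to 503 RPKM in GRP2/MP3 and from 44.9 to 75.2 RPKM in NSC, with 7.29 to 633 RPKM in BNAP/GRP1, 17.9 to 22.9 RPKM in GRP3 and 9.44 to 75.4 RPKM in PFMP. In each of them the GRP2/MP3 libraries lay above those of NSC in batches 1, 2 and 4, while the BNAP/GRP1 library of batch 4 lay within or below the NSC range.

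Cst3 (ENSMUSG00000027447, chromosome 2, 148871722 to 148875692, minus strand) had the narrowest relative range of the 10. Its levels were 1064, 1674, 2223 and 6172 RPKM in NSC, 3599, 3638, 2411 and 173 RPKM in BNAP/GRP1 and 4365, 2147, 2464 and 5434 RPKM in GRP2/MP3. GRP3 had 509, 383, 2423 and 1268 RPKM and PFMP 379, 763, 2516 and 5244 RPKM. Batch 3 fell within the range of the others, and BNAP/GRP1 4 was the lowest library. Even there Cst3 lay at the percentile of 98.9 among all genes of its library. The 10 genes together took 0.018% to 2.13% of the RPKM sum of a library, lowest in BNAP/GRP1 4 and highest in GRP2/MP3 2. The ratio of Cst3 to the summed level of the 7 cysteine cathepsins was 0.268 to 0.298 in batch 3, 0.223 to 2.45 in batch 1, 0.129 to 2.99 in batch 2 and 1.96 to 25.7 in batch 4. The inhibitor thus exceeded the summed cathepsins per length in all of batch 4 and in none of batch 3.

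**Figure D1:**
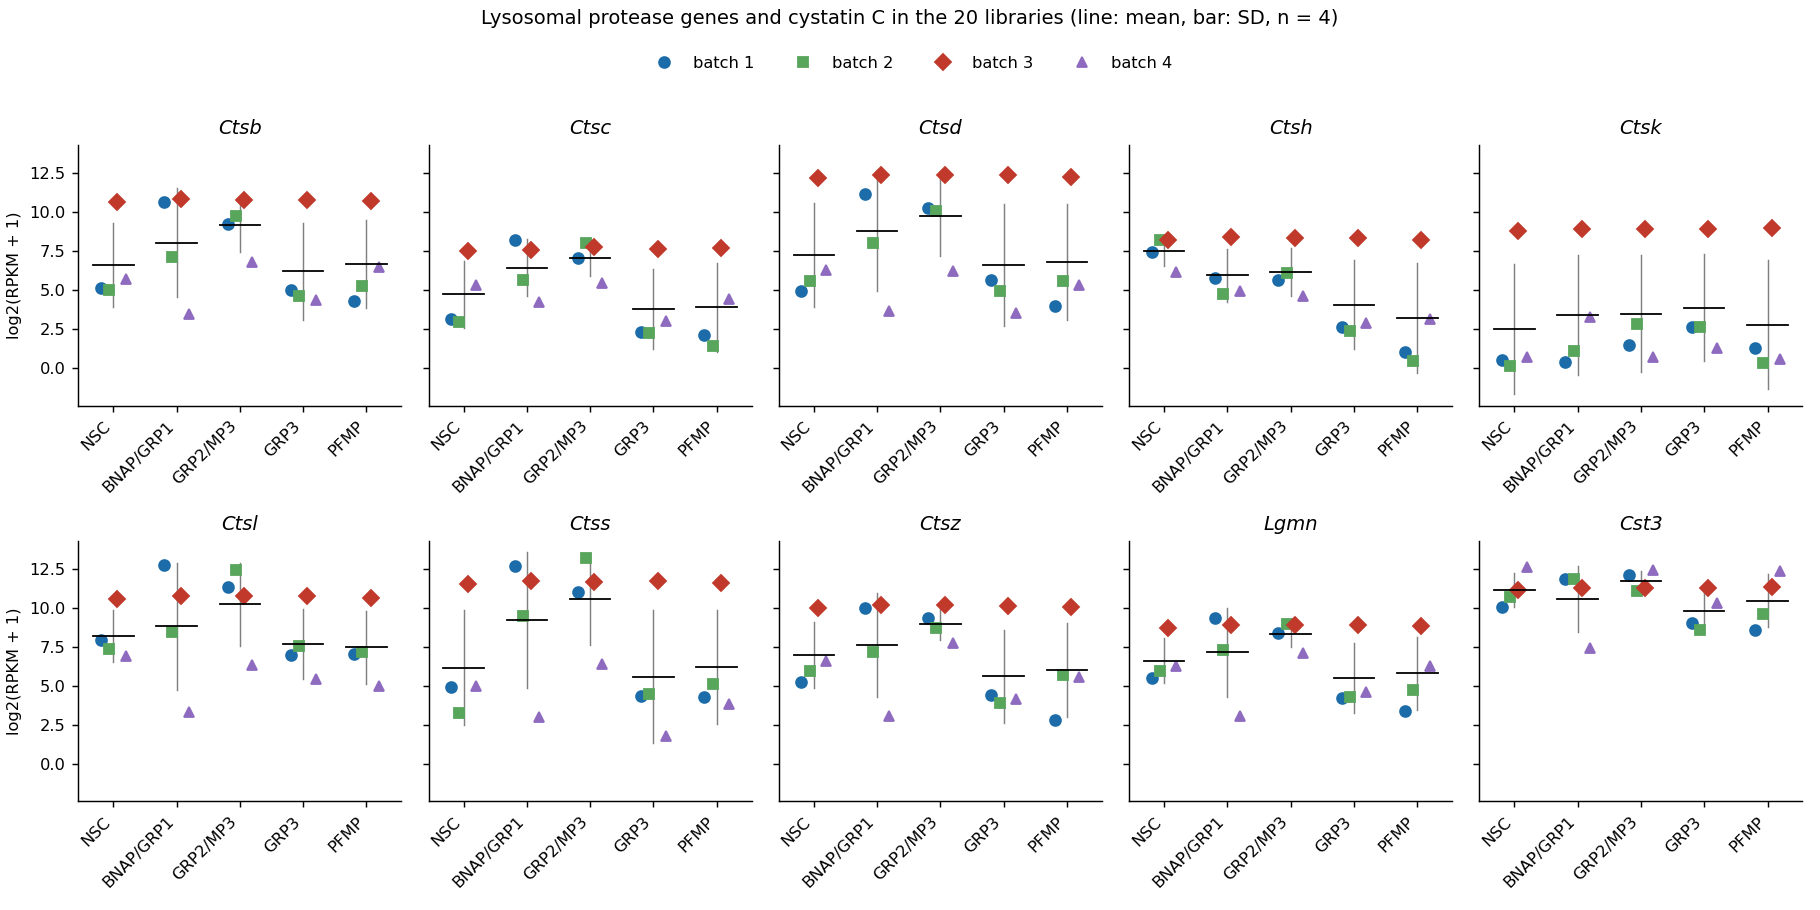
Level of each gene as log2(RPKM + 1) in the 20 libraries, by population on the x axis and with batches as colours and shapes (black line, mean; grey bar, SD, n = 4 libraries). Batch 3 (red diamonds) gives nearly the same level in all 5 populations, and Ctsk is at or below 8.64 RPKM in every other library.

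In the mean of log2(RPKM + 1), GRP2/MP3 was the highest population for 8 of the 10 genes, the exceptions being Ctsh, highest in NSC, and Ctsk, highest in GRP3. BNAP/GRP1 came after it for the 7 genes Ctsb, Ctsc, Ctsd, Ctsl, Ctss, Ctsz and Lgmn. For Ctss the order was GRP2/MP3 (10.57 ± 2.93, SD, n = 4), BNAP/GRP1 (9.20 ± 4.34), PFMP (6.20 ± 3.64), NSC (6.17 ± 3.67) and GRP3 (5.56 ± 4.26). For Ctsh it was NSC (7.49 ± 0.97, SD, n = 4), GRP2/MP3 (6.15 ± 1.55), BNAP/GRP1 (5.94 ± 1.70), GRP3 (4.05 ± 2.86) and PFMP (3.20 ± 3.53). Without batch 3 the order was the same for all 10 genes, and the means of Ctsh were 7.25 ± 1.03 (SD, n = 3) in NSC, 5.44 ± 0.76 in GRP2/MP3, 5.12 ± 0.56 for BNAP/GRP1 cells, 2.62 ± 0.24 for GRP3 cells and 1.54 ± 1.44 for PFMP cells. No neighbours in the order of any of the 10 genes differed by limma's adjusted p, with or without batch 3. In the 6 comparisons of the progenitors with each other 0 genes of the 10 passed limma's test, against 0% of all genes tested in each. Of the 60 values 4 had an unadjusted p under 0.05, those of Ctsc, Ctss and Lgmn in GRP2/MP3 against GRP3 and of Ctsc in GRP2/MP3 against PFMP. Of the 27614 genes tested, 466 and 459 were under it in these comparisons. With the batch as a replicate block there were 22 of the 60, of which 8 each, all but Ctsk and Cst3, were in GRP2/MP3 against GRP3 and against PFMP, and 3 each, Ctsc, Ctsh and Ctss, in BNAP/GRP1 against the same populations. Of the 27614 genes, 1773 and 1859 were under it with the block in the GRP2/MP3 comparisons, and 2262 and 5222 in those of BNAP/GRP1. Without batch 3 there were 19 of the 60, with 7 each in GRP2/MP3 against GRP3 and PFMP, where 1582 and 1583 of all genes tested were under it. No gene of the 10 passed after adjustment in either, where limma called at most 0.00724% of all genes in a comparison, with a lowest adjusted p of 0.254 with the block and 0.0906 without batch 3 by limma.

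Against NSC and without the replicate block, limma's test with Benjamini-Hochberg adjustment over all genes tested called 0 of the 10 genes in each progenitor. Of all genes it called 0.76% in the comparison of BNAP/GRP1 and 1.12% in that of GRP2/MP3. All of these calls were lower. Most of the 10 genes lay above NSC in these comparisons, where the test called 0 genes of any kind higher. For GRP3 the share called was 1.05%, with 3 genes higher, and for PFMP it was 1.14%, with 1 gene higher. With an unadjusted p under 0.05 there were 0 of the 10 in BNAP/GRP1 and in GRP2/MP3 and 1 each in GRP3 and PFMP, in both cases Ctsh. With the block these counts were 1 (Ctss), 4 (Ctsb, Ctsc, Ctsd and Ctss), 2 (Ctsh and Ctsk) and 1 (Ctsh), and without batch 3 they were 2 (Ctsc and Ctsh), 5 (Ctsb, Ctsc, Ctsd, Ctsh and Ctss), 2 and 1. Of the 27614 genes tested, 1629, 1600, 1552 and 1623 had an unadjusted p under 0.05, in the same order. With the block there were 3983, 3019, 2997 and 3130 such genes, and 2813, 2333, 2347 and 2422 without batch 3. The 4 comparisons share the NSC libraries. In BNAP/GRP1, 8 of the 10 log2 fold changes were above 0, with a median of 0.76 against 0.38 over all genes tested. That shift of all genes moved to 0.09 under quantile normalization. The direction in BNAP/GRP1 did not hold in each batch: 8, 9 and 10 of the 10 genes were above the NSC library of their batch in batches 1, 2 and 3, with median differences of 4.81, 1.25 and 0.16, and 1 was in batch 4, with a median of -2.45. The signs of 6 of the 10, Cst3, Ctsd, Ctsk, Ctsl, Ctsz and Lgmn, turned when libraries were left out.

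In GRP2/MP3, 9 were above 0 and the median was 2.02 against -0.08 over all genes. By batch the median difference from NSC was 3.68 and 3.75 in batches 1 and 2, with 9 of the 10 above, 0.15 in batch 3, with 10 above, and 0.04 in batch 4, with 5 above. The pooled median thus rested on batches 1 and 2. In GRP3 and PFMP 1 and 3 were above 0, with medians of -0.79 and -0.71 against 0.05 and -0.20. Without batch 3 the numbers above 0 were again 8, 9, 1 and 3, and the medians were 0.97, 2.65, -1.10 and -0.98 against 0.52, -0.09, 0.07 and -0.26 over all genes. There limma called, in the same order, 0, 0, 1 and 1 of the 10 genes, where 1.13%, 1.81%, 1.68% and 1.75% of all genes were called. Of all genes called there, 32, 82, 87 and 63 were higher.

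The largest log2 fold change from NSC was that of Ctss in GRP2/MP3, 4.41 ± 2.35 (SE), with limma's adjusted p = 1 and 0.0465 to 1 over 21 alternatives. Ctss passed the threshold in 1 of these, with the batch as a block and batch 3 left out, at a log2 fold change of 5.84. In that alternative 745 of the 27614 genes tested were called, 139 of them higher. The other changes in GRP2/MP3 were 2.51 ± 1.76 for Ctsb, 2.49 ± 2.18 for Ctsd, 2.34 ± 1.38 for Ctsc, 2.03 ± 1.65 for Ctsz, 2.02 ± 1.72 for Ctsl, 1.72 ± 1.32 for Lgmn, 0.97 ± 2.38 for Ctsk, 0.59 ± 1.11 for Cst3 and -1.34 ± 1.45 for Ctsh, all with SE and an adjusted p of 1 by limma. The value of Ctsk was -0.85 without GRP2/MP3 3. In BNAP/GRP1 the change of Ctss was 3.04 ± 2.35 (SE, limma's adjusted p = 0.866, and 0.234 to 0.99 over the alternatives).

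For Ctsh in GRP3 and PFMP, the call depended on how the batch was handled, while the sign of its change held in all 21 alternatives. Its log2 fold change was -3.44 ± 1.45 (SE) in GRP3 and -4.29 ± 1.45 in PFMP, with limma's adjusted p = 0.672 and 0.302. With the batch as a replicate block the same changes had an SE of 0.86 and an adjusted p of 0.0344 and 0.00631, so that 1 of the 10 genes was called in each, where 2.6% and 2.79% of all genes were called with the block. In BNAP/GRP1 and GRP2/MP3, where 2.09% and 3.08% of all genes were called with the block, the change of Ctsh was -1.55 and -1.34, with a blocked adjusted p of 0.398 and 0.762 by limma. Without batch 3 the change of Ctsh was -4.62 ± 0.75 in GRP3 (adjusted p = 0.00323) and -5.71 ± 0.75 in PFMP (adjusted p = 0.000663). Over the 21 alternatives the adjusted p ran from 0.0027 to 1 in GRP3 and from 0.000483 to 1 in PFMP.

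**Figure D2:**
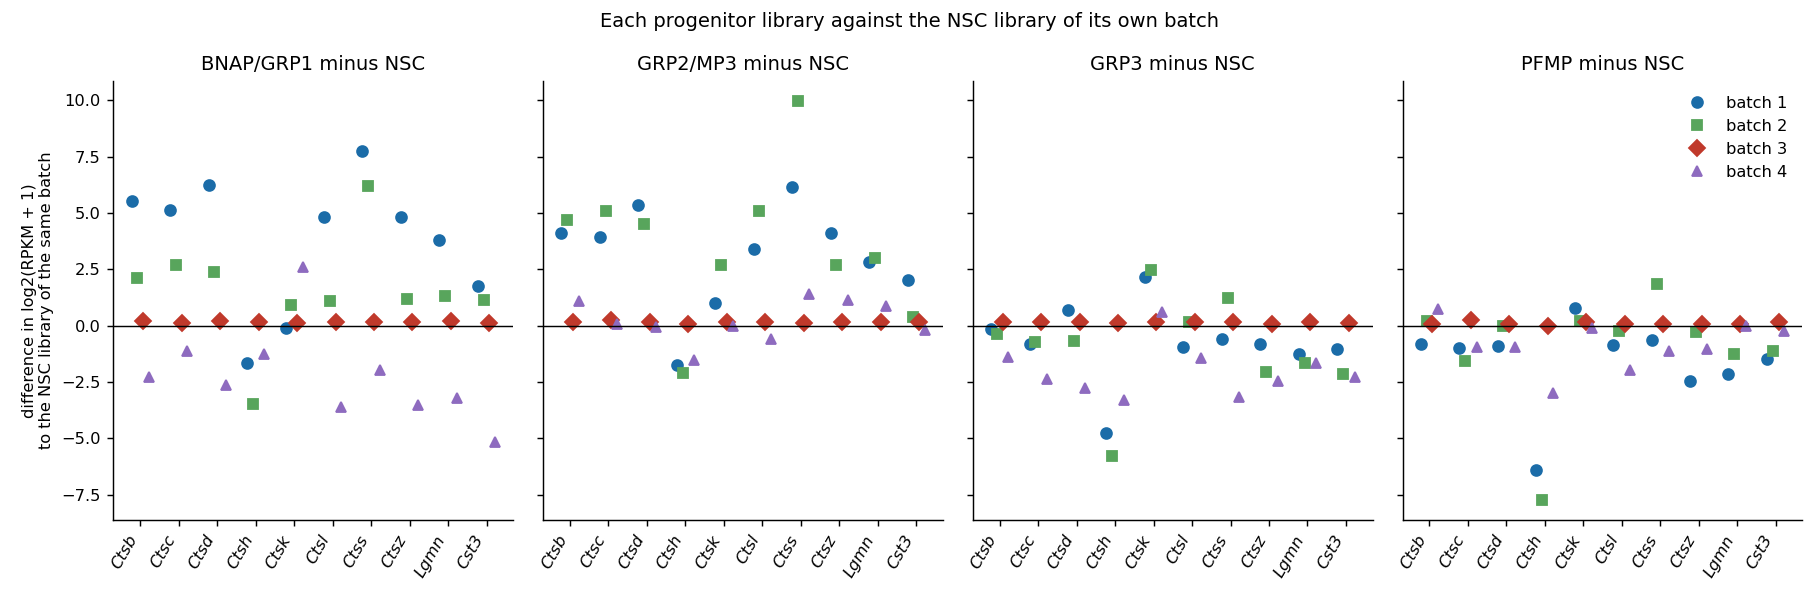
Difference in log2(RPKM + 1) between each progenitor library and the NSC library of its own batch, for the 10 genes in each of 4 panels (points, single differences, by batch). In batch 3 the differences lie between -0.03 and 0.26, and Ctsh is below 0 in all panels in batches 1, 2 and 4.

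Marker levels of other cell types moved with these values. The 7 ependymal markers summed to 1231 to 13376 RPKM in the NSC libraries and to 3.66 to 547.6 RPKM in the progenitors, with the highest of these in GRP2/MP3 4. Without the block all 7 were called lower in BNAP/GRP1, GRP3 and PFMP, and 6 of 7 in GRP2/MP3. Of all genes 0.76%, 1.05%, 1.14% and 1.12% were called there, in the same order. With the block all 7 were called lower in each progenitor, whereas Ctsh was called only in GRP3 and PFMP. The part of ependymal cells in the level of Ctsh was not tested. The 12 microglia markers summed to 132 to 2999 RPKM in BNAP/GRP1 and to 296.5 to 2678 RPKM in GRP2/MP3, where the cathepsins were high, and outside batch 3 to 15.4 to 55.4 RPKM in NSC, 14.8 to 27.5 RPKM in GRP3 and 13.2 to 53.6 RPKM in PFMP. The median of their changes from NSC on the log2 scale was 2.93 for BNAP/GRP1, 3.44 for GRP2/MP3, -0.13 for the GRP3 cells and 0.02 for the PFMP cells, with 0 of 12 called in each. Without batch 3 these medians were 3.81, 4.53, -0.17 and -0.03, with 3 of 12 called higher in BNAP/GRP1 (Cx3cr1, Siglech and Trem2), 8 of 12 in GRP2/MP3 and 0 in the CD140a+ populations. Of all 27614 genes tested, 32 and 82 were called higher in BNAP/GRP1 and GRP2/MP3 without batch 3. None of the 12 microglia markers was at 0 in all libraries of a population. In BNAP/GRP1 4, where the 7 cysteine cathepsins summed to 88.3 RPKM, the microglia markers summed to 132 RPKM. With the block, 48 of all genes tested were called higher in GRP2/MP3, and 3 of the 12 were among them, Csf1r, Cx3cr1 and Gpr34. In sorted bulk samples a larger number of microglia and more of these transcripts per cell cannot be told apart, and the part of microglia in the cathepsin levels was not tested.

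Other lists moved with GRP2/MP3 as well. The 8 pericyte markers summed to 124 to 7341 RPKM in GRP2/MP3, highest in GRP2/MP3 4, and to 4.16 to 198 RPKM in the other populations. Their median change from NSC in GRP2/MP3 was 2.90, with 8 of 8 above 0 and 0 called, and with the block 5 of 8 were called higher, as were 5 of 8 without batch 3 (median 3.88). The 8 markers of myeloid cells in general had a median change of 3.04 for BNAP/GRP1 cells and 3.69 for GRP2/MP3 cells, with 0 called, and without batch 3 of 3.97 and 4.88, with 2 and 3 called higher. The 5 tested of 6 border macrophage markers had a median of 1.44 and 2.08, with 0 called, and without batch 3 of 1.85 and 2.70, with 0 and 1 called. Of all 27614 genes tested, 32 in BNAP/GRP1 and 82 in GRP2/MP3 were called higher without batch 3, and 48 in GRP2/MP3 with the block. The part of pericytes, myeloid cells and border macrophages in the cathepsin levels was not tested.

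**Figure D3:**
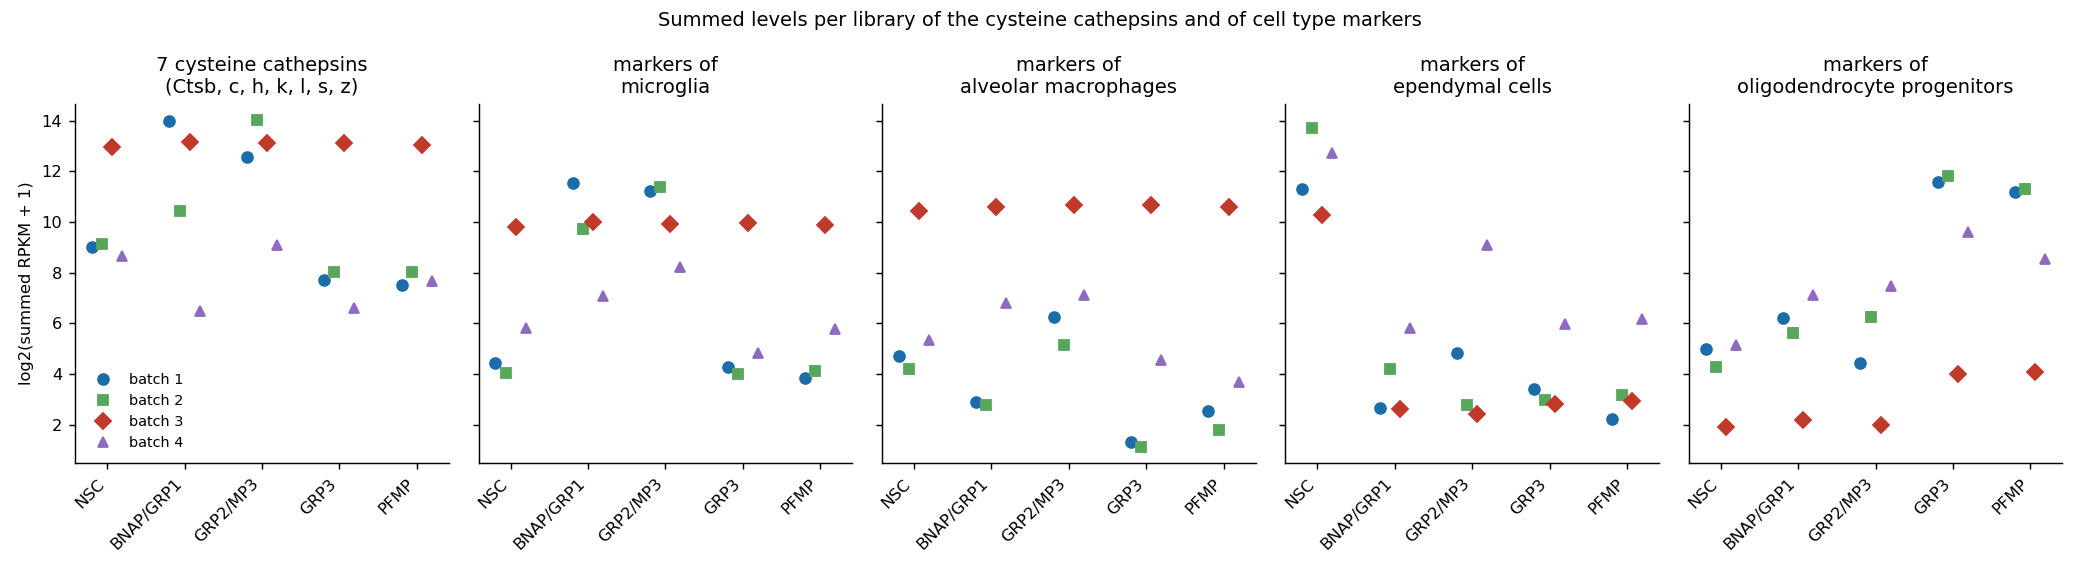
Summed RPKM per library, as log2(sum + 1), of the 7 cysteine cathepsin genes and of 4 marker lists, by population with batches as colours and shapes. Outside batch 3 the cathepsin and microglia sums are highest in BNAP/GRP1 and GRP2/MP3 of batches 1 and 2, and batch 3 is level in both.

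The second comparison was between batches, with the population as a term. Against batches 1 and 2, batch 3 had 8 of the 10 genes called higher by limma, while 13% of all genes were called higher. Ctsk rose by 7.57 ± 0.47 on the log2 scale (SE, adjusted p = 1.21e-09, at most 5.3e-07 over 28 alternatives). Ctsd rose by 5.28 ± 0.84 (adjusted p = 9.09e-05, at most 0.00243) and Ctss by 4.38 ± 1.09 (adjusted p = 0.00484, at most 0.0537). Called higher too were Ctsb by 4.16, Ctsh by 3.86, Ctsz by 3.78, Ctsc by 3.33 and Lgmn by 2.63, and the call of Lgmn (adjusted p = 0.0125 by limma) was lost in 5 of 28 alternatives, up to 0.107. Ctsl, at 1.80 ± 0.82, and Cst3, at 0.90 ± 0.78, did not pass, with limma's adjusted p = 0.112 and 0.429. Ctsl was called higher in 4 of 28 alternatives, those without BNAP/GRP1 1, without GRP2/MP3 2 or without either population, at 2.15 to 2.54 (limma's adjusted p from 0.0115 to 0.0442).

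In the same comparison the other genes of the lysosome were counted from lists. Among 12 other lysosomal proteases 9 rose, among them Ctsa, at 355 to 390 RPKM in batch 3 and 3.30 to 154 RPKM elsewhere, and Napsa, an aspartic protease of lung, at 62.5 to 75.6 RPKM against 0 to 10.4 RPKM, while Ctsf fell. Of 8 other inhibitors of cysteine proteases 4 rose, with Cstb, the cytosolic inhibitor cystatin B, at 1303 to 1415 RPKM against 16 to 677 RPKM. Of 27 other lysosomal hydrolases 19 rose and 1, Arsb, fell. Of the 6 genes of the sorting machinery 3 rose and 0 fell, of 15 of the acidifying V-ATPase 4 rose and 0 fell, and of 13 activators and membrane proteins 4 rose, with Psap, the sphingolipid activator precursor, at 3494 to 4054 RPKM against 8.49 to 621 RPKM, and Scarb2 fell. All 4 genes of the MiT/TFE transcription factors, Mitf, Tfe3, Tfeb and Tfec, rose, and Tfec reached 93.8 to 106 RPKM against 0.0828 to 21.9 RPKM. Against NSC, 0 genes of these 7 lists passed in any progenitor in the fit of all 20 libraries without the replicate block.

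Beside this, all 10 alveolar macrophage markers were called higher in batch 3, 7 of 8 markers of myeloid cells in general and 5 of the 7 lung epithelium markers tested of 9. Of all genes 13% were called higher there. The lists were chosen with earlier results of these data known, and a gene expressed only in batch 3 could meet the filter. These calls therefore describe batch 3 and are no independent test of its content. Of 12 microglia markers 3 rose and 4 fell, and all 8 oligodendrocyte progenitor markers fell, where 15.8% of all genes were called lower. Ear1, an eosinophil-associated ribonuclease gene of alveolar macrophages, was listed at 0 in all of batch 1, and Scgb3a2, an airway secretory gene, in all of batches 1 and 2. The part of such cells in the batch 3 levels was not tested.

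Batch 4 was compared in the same way. Against batches 1 and 2, limma called 2 of the 10 genes lower, Ctsl by -3.49 ± 0.82 (SE, adjusted p = 0.00275, at most 0.0193 over 28 alternatives) and Ctss by -3.26 ± 1.09 (adjusted p = 0.0223, up to 0.153), while 7.25% of all genes were called lower and the median of all genes was 0.74. Of the 27614 genes tested 10325 were called higher, and 0 of the 10 were. These 2 calls are not read as a shift of the 10 genes together. Under quantile normalization 13.4% of all genes were called lower and the median was -0.07, and without BNAP/GRP1 4 they were 7.85% and 0.44. At an unadjusted p under 0.05 there was also Ctsd, at -2.01 ± 0.84 (limma's adjusted p = 0.0594), which was called in 6 of 28 alternatives, all of them without an NSC or PFMP library or population, at -2.77 to -2.29. The median of the 10 genes was -0.83, with 2 of them, Cst3 and Ctsc, above 0. BNAP/GRP1 4 entered these values, and without it the change of Ctss was -2.38 (limma's adjusted p = 0.132), while Cst3, at 0.69 ± 0.78 (adjusted p = 0.482), was called higher at 1.84 (adjusted p = 0.0123). Cst3 was called higher too under quantile normalization, at 2.08 (limma's adjusted p = 0.0384).

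**Figure D4:**
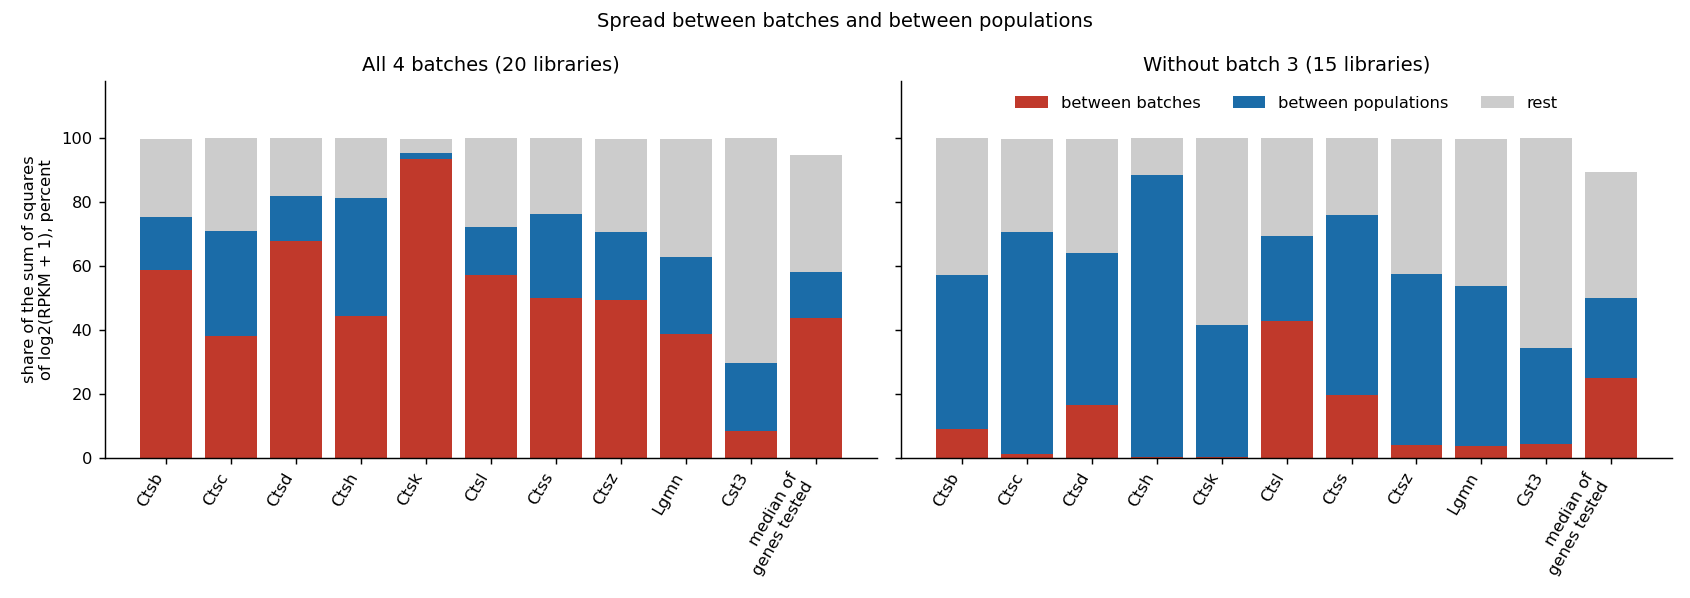
Share of each gene's sum of squares of log2(RPKM + 1), in percent, that lay between batches (red), between populations (blue) and in the rest (grey), over 20 libraries on the left and 15 on the right. The last bar gives the medians over genes tested, which need not add to the whole. Without batch 3 the blue share of Ctsh is 88.6%.

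The share of the spread that lay between batches shows the same contrast among the 10 genes. Over all 20 libraries it was 93.5% for Ctsk, 68.0% for Ctsd and 58.8% for Ctsb, and 8.32% for Cst3, with a median of 43.9% over the genes tested. Without batch 3 the share between populations was 88.6% for Ctsh, 69.5% for Ctsc and 56.6% for Ctss, and 26.5% for Ctsl, with a median of 25% over the genes tested. Ctsl kept 42.8% between batches after batch 3 was left out, the highest of the 10.

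Across libraries the genes fell into a closely shared pattern and a few exceptions. Among Ctsb, Ctsc, Ctsd, Ctsl, Ctss, Ctsz and Lgmn, Pearson's r of log2(RPKM + 1) was 0.763 to 0.985 over the 21 pairs and 20 libraries, and 0.667 to 0.974 over the 15 libraries without batch 3. Against these 7 genes, Ctsh had an r of 0.551 to 0.724 with batch 3 and 0.318 to 0.538 without it, Cst3 one of 0.432 to 0.751 and 0.388 to 0.804, and Ctsk one of 0.470 to 0.746 and -0.314 to 0.0303. The relation of Ctsk to the others thus rested on batch 3. The points share batches, population gates and library depth, and these correlations are descriptions.

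**Figure D5:**
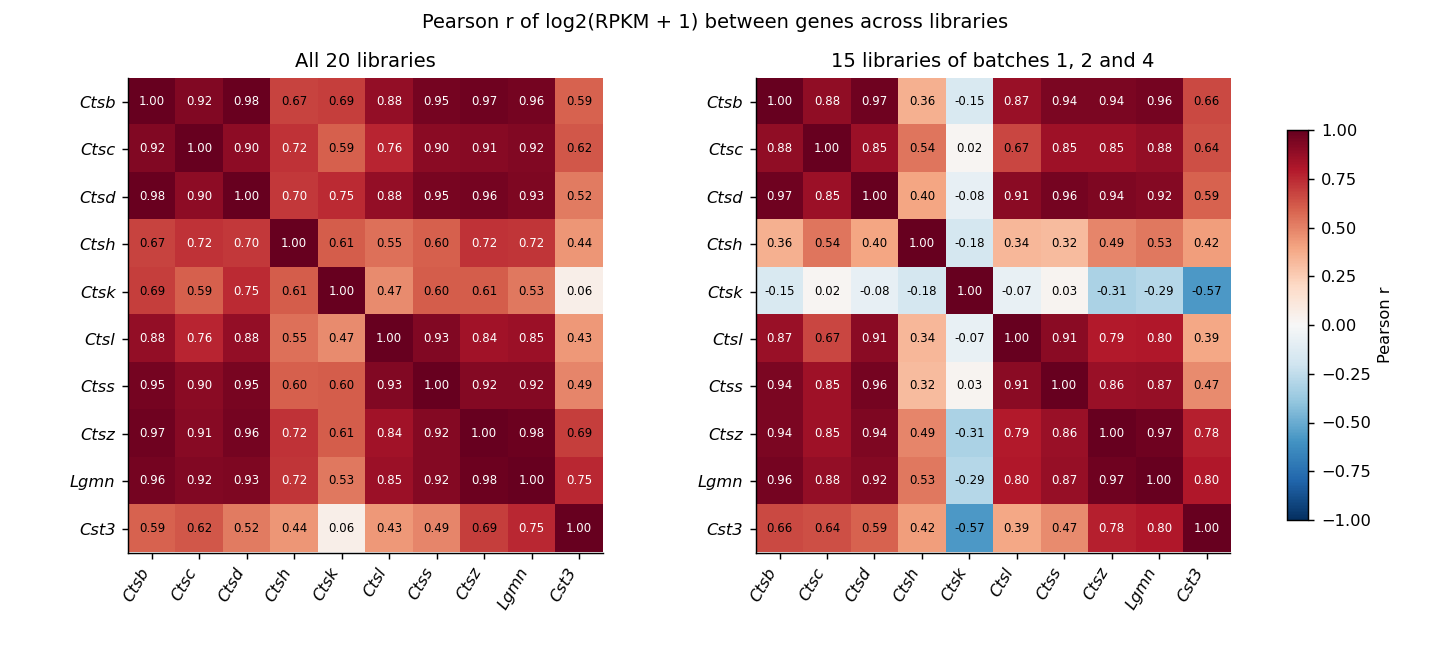
Pearson's r of log2(RPKM + 1) between the 10 genes across all 20 libraries (left) and across the 15 libraries of batches 1, 2 and 4 (right), with red for positive and blue for negative values. The row of Ctsk turns from 0.0574 to 0.746 on the left to -0.574 to 0.0303 on the right.

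The genes most like each of the 10 were read over the 20 libraries in the same way. Ctsd was most like Creg1, which encodes a lysosomal glycoprotein (r = 0.994, and 0.987 without batch 3), then Ctsb (0.985) and Sirpa (0.972). Ctss was most like Lpl, Csf1r, the receptor on which microglia depend, and Bcl2a1b (0.970, 0.970 and 0.969), and Ctsc most like Anxa3, Adgre1, the macrophage antigen F4/80, and Ccl6 (0.979, 0.976 and 0.963). Ctsl was most like Hexa, Serinc3 and Lamp1 (0.948, 0.944 and 0.931), and Ctsb like Ctsd, Creg1 and Skap2 (0.985, 0.973 and 0.971). Ctsz and Lgmn were each most like the other (0.979), then like Ctsb (0.969 and 0.960), followed by Ctsd (0.960) for Ctsz and by Cyba (0.946) for Lgmn. Ctsh was most like Aldh3b1, Agtrap and Anxa2 (0.964, 0.963 and 0.959), and Cst3 like Tpm3, Apoe, the astroglial and microglial lipid carrier, and Myl12a (0.913, 0.846 and 0.832). Those of Ctsk were Ccr6, Plk3 and Ptgs2 (0.980, 0.980 and 0.978), which fell to 0.706, 0.657 and 0.729 without batch 3.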

How the data were processed

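RNA was measured in 20 libraries, 1 of each of 5 sorted populations in each of 4 labelled batches. The deposited values are RPKM, which the authors made from reads processed with nf-core/rnaseq, per the labels with FastQC 0.11.9, cutadapt 3.4, STAR 2.6.1 on GRCm38, Salmon 1.9.0 and DESeq2 1.26.0. The gene lengths, the read totals behind the scaling and the annotation release are not given in the sources used here. The table's 26 unnamed columns without values were not used, and no library was left out.

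Values were taken as log2(RPKM + 1), so folds of low genes are understated. Genes at 1 RPKM or more in at least 4 libraries were fitted in R 4.3.3 with limma 3.58.1 (trended prior) and 1 mean per population, with Benjamini-Hochberg adjustment and a threshold of 0.05. Batches were compared with a population term added. Steps were tested on simulated data. The batch labels pair the libraries: after the population mean was removed, the median r was 0.337, 0.262, 0.769 and 0.581 within batches 1 to 4 and -0.204 between batches, at lowest 0.0341 within a batch. The batch entered as a replicate block only as an alternative. Without it the spread between batches stays in the error of the population comparisons. In GRP2/MP3 against NSC, the block moved the SE from 2.38 to 0.61 for Ctsk and from 1.11 to 1 for Cst3. A result for 1 gene of the wider lists is not reported here.

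The genes and lists were chosen with earlier results of these data known. Named were the 10 genes, the 3 genes most like each by Pearson's r, and list genes that were called or high. The choices varied were the pseudocount (0.1), the filter (none, or a mean of 5 RPKM), the scaling (median of ratios, or quantiles), the prior (no trend), the groups entering the fit, and the libraries or batches left out. Counts of list genes in the batch comparisons and r without batch 3 were chosen after seeing the data. Python 3.11.15 and matplotlib 3.10.9 gave positions (GENCODE vM21) and figures.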

Additional observations from a re-analysis of the deposited data

Results flagged for a closer look

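In a group of 4 libraries, 1 value lay far from the other 3 by Dixon's test, at a level of 1 in 20 for a single group, in 10 of the 50 groups looked at. The 10 genes were measured in the same libraries, so the groups are not independent and the count cannot be set against that level. Of these, 9 were the batch 3 library of their population, all of them high. In GRP3 they were Ctsb at 1767.8 RPKM, Ctsc at 195.01 RPKM, Ctsh at 318.33 RPKM, Ctsz at 1083.6 RPKM and Lgmn at 468.93 RPKM. In NSC they were Ctsb at 1590.7 RPKM and Ctsk at 431.05 RPKM, and in PFMP Ctsk at 488.39 RPKM and Ctss at 3115.4 RPKM. The remaining value was Cst3 in BNAP/GRP1 4, at 173.07 RPKM, the lowest of its population.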

How the results depend on the processing

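Against NSC, the count of the 10 genes called stayed 0 under most alternatives. It was 1 with the replicate block in GRP3 and in PFMP (Ctsh in both), 1 with the replicate block and without batch 3 in GRP2/MP3 (Ctss), GRP3 and PFMP (Ctsh), and from 0 to 1 when single libraries or batches were left out in GRP3 and PFMP. The call of Ctsh came without batch 3 in GRP3 and PFMP, and without PFMP 3 in PFMP, at -5.95 (adjusted p = 0.0232). The replicate block changed no other call of the 10 genes. Signs turned when libraries were left out for 7 genes of the 10 in PFMP, 6 in BNAP/GRP1, 5 in GRP3 and 1 in GRP2/MP3. For BNAP/GRP1 cells, Ctsd ranged from -0.02 to 3.26, Ctsk from -0.96 to 2.96, Ctsl from -0.80 to 2.44, Ctsz from -0.73 to 2.16, Lgmn from -0.57 to 1.88 and Cst3 from -1.30 to 1.00, Ctsk in GRP2/MP3 from -0.85 to 3.05, Ctss in GRP3 from -2.64 to 1.19 and Ctss in PFMP from -1.77 to 1.82. In batch 4 against batches 1 and 2 the count was 1 without a population term, 3 with quantile normalization (Cst3 added, higher), and from 1 to 3 when libraries were left out: Ctss was lost without BNAP/GRP1, GRP2/MP3 or GRP3 (all libraries or that of batch 4), Cst3 gained without BNAP/GRP1 and Ctsd gained without NSC or PFMP. In batch 3 the count was from 6 to 9 when libraries were left out: Ctsl was gained without BNAP/GRP1 or GRP2/MP3, Ctss was lost without GRP3 in every batch (3.64) and Lgmn without GRP3, NSC or PFMP in every batch, GRP3 3 or PFMP 3 (2.10 to 2.55). Over all genes, the calls in BNAP/GRP1, GRP2/MP3, GRP3 and PFMP were 210, 308, 290 and 316, with the block 576, 851, 719 and 771, with a pseudocount of 0.1 75, 174, 156 and 227, with only the populations compared 61, 114, 115 and 95, and with quantile normalization 441, 443, 454 and 369. With the block and without batch 3 the calls over all genes were 459, 745, 671 and 692, in the same order. The causes were not tested. Depth is not in the table, and 4 libraries a population with 1 unlike batch limit what these tests can call.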
